A study of Mus musculus with 6 samples.

Results

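Fibroblasts, smooth muscle cells and pericytes are the mesenchymal cells that surround the vessels and airspaces of the lung. The 35 genes described here are markers of those cells, read in DNA from another cell type, the endothelium. They were taken by name from the 20665 protein-coding genes on the autosomes of the mouse. They fall into 5 types by function: 14 matrix and fibre genes, 4 fibroblast surface and enzyme genes, 5 regulators of the mesenchymal lineage, 5 smooth muscle genes and 7 pericyte genes. With 5 kb on either side, the 35 gene spans overlap 1596 windows of 1000 bp that had a value in all 6 samples, out of 1683697 such windows in all.

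Methylation of DNA was read by bisulfite sequencing of the whole genome after tagmentation, a library method for little DNA in which a transposase cuts and tags the fragments and bisulfite then converts unmethylated cytosines. The 6 samples were lung endothelial cells isolated by flow sorting from wild-type mice. Of these, 3 are titled mAdu and 3 are titled aged. The mice were of 2 ages, 8 and 18 months, and the titles were read as 8 months for mAdu and 18 months for aged, since the labels do not tie ages to titles. No allele or treatment is named for either group. Nothing in the labels says that the samples are from different mice, so each p-value refers to the spread among these samples, and that spread may be technical. The values are mean methylation levels per window, given here as percent, with no read depth beside them, so no counting error can be attached to a value. A middle level in a window can come from some of the cells or from some of its CpG sites, and these cannot be told apart.

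In mammals most CpG dinucleotides carry a methyl group, and promoters dense in CpG are usually free of it in most cell types, whether the gene is active or not. Promoters poor in CpG tend to lose methylation in the cells that use them. Long unmethylated stretches that run past the promoter are known at genes for lineage regulators. A marker of another lineage can therefore be unmethylated at its start without being a gene of the cell studied.

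As a check of the cell type, 17 of 20 endothelial markers (Cdh5, Pecam1, Kdr and others) had a run of at least 3 adjacent windows under 20%. Of the 14 haematopoietic markers 2 had such a run, as did 2 of 15 epithelial markers and 5 of the 35 mesenchymal genes (14.3%, beside 18.2% of all genes). Such runs were also found at 21 of 57 other genes of the same mesenchymal kinds (36.8%), among them 9 of 12 further lineage regulators. Those lists include genes that endothelium also makes, such as Foxf1 and Mcam. With 18.2% of all genes having such a run, it is not particular to endothelial markers. Windows or regions under 20% are called low below, and those above 80% high. The mean over all windows lay between 73.1% and 73.7% in the 6 samples.

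Promoter sequences are shown first because the levels at the starts of these genes went with the number of CpG dinucleotides in them. A promoter sequence was matched for 22 of the 35 genes in RefSeq (build GRCm38.p6, with the same coordinates as mm10). Shown are the 250 bases before the start for 7 genes that cover the range from dense to empty, 5′ to 3′ on the strand of the gene, with each CG in capitals. Npnt lies at chr3:132950292-132950541 on the minus strand, Col1a2 at chr6:4505368-4505617 on the plus strand and Des at chr1:75360042-75360291 on the plus strand. Kcnj8 lies at chr6:142571615-142571864 on the minus strand. Rgs5 (chr1:169655251-169655500), Dpt (chr1:164796413-164796662) and Col3a1 (chr1:45311288-45311537) are on the plus strand.
Npnt: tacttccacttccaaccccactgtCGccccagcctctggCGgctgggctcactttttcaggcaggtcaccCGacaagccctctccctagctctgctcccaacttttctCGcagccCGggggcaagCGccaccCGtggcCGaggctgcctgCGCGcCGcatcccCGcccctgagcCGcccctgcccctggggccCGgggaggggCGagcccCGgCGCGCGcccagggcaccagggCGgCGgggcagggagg
Col1a2: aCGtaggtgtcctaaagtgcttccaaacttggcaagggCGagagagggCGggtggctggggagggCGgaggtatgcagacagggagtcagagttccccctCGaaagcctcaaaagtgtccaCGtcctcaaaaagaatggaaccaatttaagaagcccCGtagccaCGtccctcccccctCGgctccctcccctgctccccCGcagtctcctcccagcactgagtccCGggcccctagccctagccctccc
Des: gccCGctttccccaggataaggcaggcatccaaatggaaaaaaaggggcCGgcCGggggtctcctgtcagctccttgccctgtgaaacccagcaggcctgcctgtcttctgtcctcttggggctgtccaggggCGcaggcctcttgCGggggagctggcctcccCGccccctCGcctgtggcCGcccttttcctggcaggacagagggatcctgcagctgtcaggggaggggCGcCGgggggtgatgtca
Kcnj8: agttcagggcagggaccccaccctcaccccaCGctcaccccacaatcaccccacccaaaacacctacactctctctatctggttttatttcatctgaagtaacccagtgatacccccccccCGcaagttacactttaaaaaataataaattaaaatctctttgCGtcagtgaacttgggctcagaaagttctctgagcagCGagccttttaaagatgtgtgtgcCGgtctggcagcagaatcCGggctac
Rgs5: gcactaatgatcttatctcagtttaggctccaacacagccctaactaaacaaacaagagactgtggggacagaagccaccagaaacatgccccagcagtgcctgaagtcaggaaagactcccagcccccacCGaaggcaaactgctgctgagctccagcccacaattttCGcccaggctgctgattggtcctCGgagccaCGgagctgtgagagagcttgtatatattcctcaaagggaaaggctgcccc
Dpt: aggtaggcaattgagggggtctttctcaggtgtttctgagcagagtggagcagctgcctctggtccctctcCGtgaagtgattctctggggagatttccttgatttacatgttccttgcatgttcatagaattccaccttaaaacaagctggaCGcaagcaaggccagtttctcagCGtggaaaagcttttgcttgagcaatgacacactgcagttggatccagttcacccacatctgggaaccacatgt
Col3a1: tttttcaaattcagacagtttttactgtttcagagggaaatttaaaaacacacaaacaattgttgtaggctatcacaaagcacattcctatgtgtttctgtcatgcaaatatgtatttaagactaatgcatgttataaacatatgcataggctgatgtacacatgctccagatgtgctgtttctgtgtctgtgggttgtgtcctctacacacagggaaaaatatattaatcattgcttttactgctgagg

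The Npnt, Col1a2 and Des stretches hold 21, 11 and 10 CG. In the windows that hold their starts the mean levels over 6 samples were 2.03%, 2.02% and 3.48%. Kcnj8 holds 6 CG and read 1.07%. Rgs5 holds 4 CG and read 20.3%, Dpt holds 3 and read 79.8%, and Col3a1 holds none and read 48.0%. All 8 of the mesenchymal promoters with 10 or more CG had a low start window, where 95.1% of all promoters of that class did. With 5 to 9 CG it was 2 of 5 (all genes 53.9%), with 2 to 4 CG it was 2 of 7 (all genes 16.0%), and with 0 or 1 CG it was 0 of 2 (all genes 4.44%).

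Across the 22 genes the CG count and the level of the start window correlated with Pearson r = -0.667 and Spearman rho = -0.685, and across 15103 genes with r = -0.647 and rho = -0.722. These describe genes of the same libraries, which are not independent replicates. Start windows were low in 12 of 22 mesenchymal genes and in 65.7% of all genes, with medians of 11.8% and 4.90%. The median promoter of the 22 held 6 CG and that of all genes 10. Exceptions stood on both sides of the trend. Cnn1 with 3 CG and Pdgfra with 4 had start windows at 5.19% and 2.89%, while Tcf21 with 5 and Fbln1 with 7 read 64.2% and 41.0%.

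**Figure D1:**
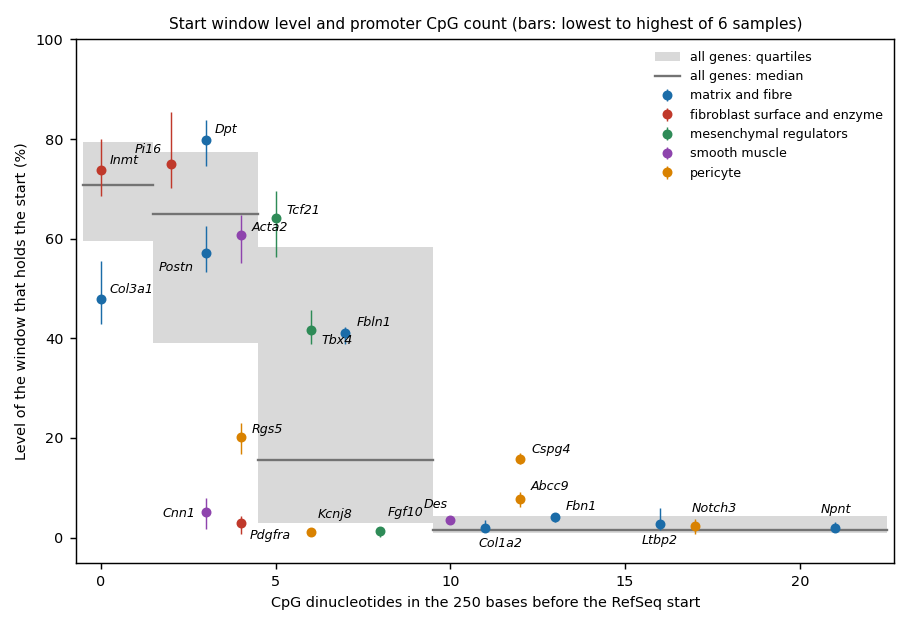
Number of CG dinucleotides in the 250 bases before the RefSeq start (horizontal axis) against the methylation level in percent of the window that holds the start (vertical axis), for 22 mesenchymal genes coloured by type. Points are means of 6 samples, bars run from the lowest to the highest sample, and grey boxes and lines are the quartiles and median of all genes with that many CG. The 8 genes with 10 or more CG lie between 2.02% and 15.8%, while genes with fewer spread from 1.07% to 79.8%.

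Levels were then read for all 35 genes at a gene end and over the gene body. The end is the less methylated edge of the gene, from 1000 bp outside to 500 bp inside, which need not hold the start. The median end of the 35 genes read 32.3%, beside 33.3% for 19089 genes, 15.8% for endothelial markers, 35.6% for epithelial markers and 63.4% for haematopoietic markers. Of the 35 ends, 7 were low (20%, beside 29.6% of all genes), 20 lay between 20% and 50%, 6 between 50% and 80%, and 2 were high. The median body read 71.9%, beside 73.3% for 17534 genes and 53.7% for endothelial markers. Among the 35 genes the median SD over a group's 3 samples was 1.34 points at ends in mAdu and 1.75 points in aged samples.

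**Figure D2:**
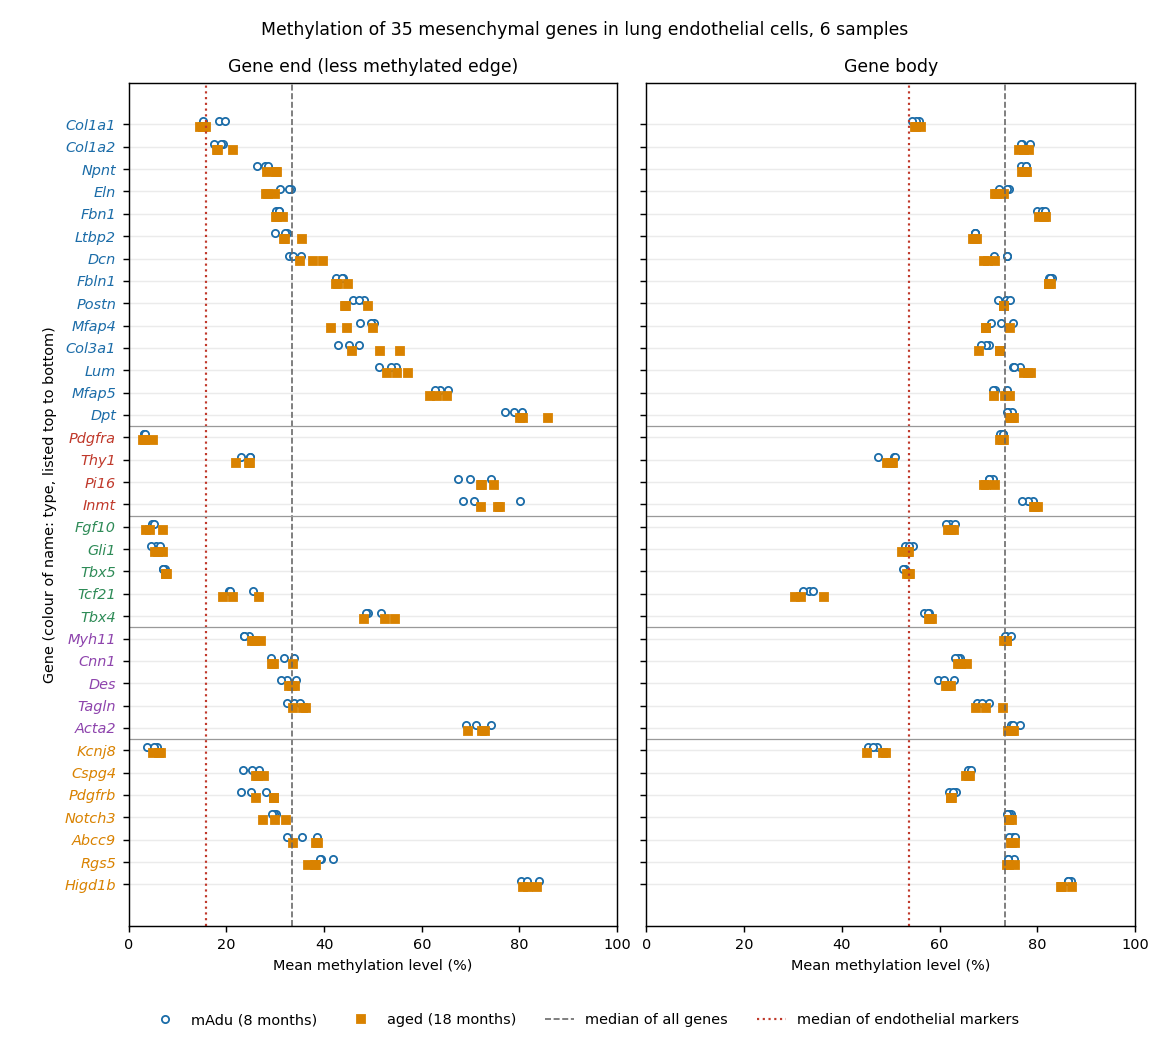
Methylation level in percent (horizontal axes) at the less methylated edge (left) and over the body (right) of each of the 35 genes (rows), which are grouped by type and ordered by end level. Open circles are the 3 mAdu and filled squares the 3 aged samples, and the dashed and dotted lines are the medians of all genes and of endothelial markers. Ends spread from 3.47% for Pdgfra to 82.0% for Higd1b, and 32 of 35 bodies lie above 50%.

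The fibrillar collagen genes Col1a1 and Col1a2 encode the chains of type I collagen, and Col3a1 the chain of type III collagen. The Col1a2 start window read 1.89%, 3.51% and 1.53% in the mAdu samples and 1.58%, 2.30% and 1.32% in the aged samples. All 6 samples were thus near 0 there, and the windows on either side of it averaged 20.8% and 34.0%. At Col1a1 the window chr11:94936001-94937000 at the lower edge averaged 16.5%, and the next one inside averaged 1.09%. At Col3a1 the start window ran from 42.8% to 47.1% in the mAdu and from 45.8% to 55.6% in the aged samples, so the groups overlapped. Its only low window, chr1:45314001-45315000 inside the gene, read 7.12%, 22.9% and 6.64% in the mAdu and 27.0%, 7.84% and 7.09% in the aged samples. There 1 sample of each group stood apart from the other 4.

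Among the genes for elastic fibres and microfibrils, Eln (elastin) and Fbn1 (fibrillin-1) had low edge windows, though their ends read 30.6% each. Their bodies read 72.7% and 81.1%. The Eln edge window at chr5:134747001-134748000, which also overlaps Gm30003, averaged 1.04% and ranged from 0.494% to 2.60% over the samples. Fbn1 had 2 low windows at its start, at 4.06% and 2.53%, and another far inside the gene. That one, chr2:125464001-125465000, read 4.05%, 5.10% and 3.64% in the mAdu samples and 7.08%, 6.33% and 3.04% in the aged samples, so it was low in all 6. Ltbp2, which encodes a latent TGF-beta binding protein of microfibrils, had 2 low windows at its start, at 2.70% and 5.88%, where D030025P21Rik overlaps. Fbln1 (fibulin-1) had a start window at 41.0%, the next window inside at 7.86%, and a body of 82.6%. Npnt, a basement membrane ligand of integrin, had 2 low windows of 2.03% each at its start and a body of 77.4%.

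The ends of the other matrix genes ran from 35.7% at Dcn to 80.5% at Dpt. The small proteoglycan Dcn (decorin) had 1 low edge window, chr10:97479001-97480000, at 9.02%. Its relative Lum (lumican) had none, with 54.1% at the end and 76.8% in the body. Neither Postn (periostin), Mfap5 nor Dpt (dermatopontin) had a low window within 5 kb, and their ends read 46.5%, 63.6% and 80.5%. At Mfap4 the end read 47.3%, and the single low window of its surroundings (10.5%) overlaps the neighbouring gene Mapk7. In all, 17 of 773 windows of the 14 matrix genes were low (2.20%), beside 2.89% of all windows and 4.44% of windows within 5 kb of a protein-coding gene.

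The ends of the 4 fibroblast surface and enzyme genes ran from 3.47% at Pdgfra to 73.8% at Inmt. Pdgfra, the receptor for PDGF-A that marks lung fibroblasts, lay in the longest low run of the 35 genes. The run took 10 windows, chr5:75148001-75158000, with means of 5.65%, 5.19% and 5.95% in the mAdu samples and 6.05%, 5.88% and 5.63% in the aged samples. These means lay within 1 point of each other over the 6 samples, but single windows differed more. The window chr5:75157001-75158000 ran from 11.6% to 20.2%. At chr5:75155001-75156000 the groups did not overlap, with means of 1.27% in mAdu and 3.41% in aged samples (limma adjusted p = 0.978). The stretch began before the gene and reached past the start. The rest of the locus was methylated, with a body of 72.8% and 63.0% of its 54 windows high. Thy1, a surface glycoprotein, had 1 low edge window at 2.51% and a body of 49.7%.

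Pi16, a marker of adventitial fibroblasts, and Inmt, an indolethylamine methyltransferase, had methylated starts. The Pi16 start window read between 70.1% and 85.4% over the 6 samples, and no window of its locus was low. The Inmt start window read 80.1%, 70.7% and 68.5% in the mAdu and 75.6%, 72.1% and 75.9% in the aged samples, with the groups overlapping. Upstream of Inmt the window chr6:55177001-55178000 read between 3.26% and 9.02%, the only low window of that locus.

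The regulators of the mesenchymal lineage had the lowest median end (7.40%) and the lowest median body (53.5%) of the 5 types. Tbx4 and Tbx5 are T-box factors of lung mesenchyme, Fgf10 is the growth factor with which mesenchyme drives branching of the epithelium, Gli1 is a transcription factor and target of hedgehog signalling, and Tcf21 is a factor of fibroblast precursors. Of their 217 windows 36 were low (16.6%), beside 4.44% of windows within 5 kb of a protein-coding gene and 12.1% at the further regulators. Tbx5 alone held 19 of the 36. Their ends read 4.96% for Fgf10, 5.81% for Gli1, 7.40% for Tbx5, 22.3% for Tcf21 and 50.8% for Tbx4. Runs of at least 3 low windows were found at 3 of the 5 genes, beside 18.2% of all genes and 9 of 12 further regulators.

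Tbx5 held 19 low windows, more than any other of the 35 genes, and 16 of them lay in the interior. They formed several separate runs, among them 4 windows at the lower edge (mean 9.92%), 4 at chr5:119803001-119807000 (mean 4.31%) and 3 at chr5:119835001-119838000 (mean 11.5%). The run at chr5:119803001-119807000 read 4.16%, 4.14% and 4.94% in the mAdu samples and 6.53%, 2.63% and 3.50% in the aged samples, with the groups overlapping. Gm5563 overlaps 3 of the low windows. At Fgf10 a run of 4 windows around the start (chr13:118713001-118717000) averaged 6.69%, and at Gli1 a run of 4 at the upper edge (chr10:127339001-127343000) averaged 3.62%.

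Tbx4 and Tcf21 were not low at the RefSeq start, where they read 41.8% and 64.2%. Tbx4 had its 4 low windows between the lower edge of the gene and that start, the lowest of them chr11:85895001-85896000 at 7.26%. That window ranged from 5.91% to 8.32% over the 6 samples. Tcf21 had its lowest window, 4.85%, at the far edge of the gene, and all 4 of its low windows overlap the gene Gm10824. Its body was the least methylated of the 35 at 33.0%, over 3 windows only.

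The smooth muscle genes encode parts of the contractile apparatus. Acta2 (smooth muscle alpha-actin), a common marker of these cells, was methylated at the start, where the window read 64.0%, 55.0% and 64.7% in the mAdu and 64.1%, 59.9% and 57.2% in the aged samples. The groups overlapped, and none of the 21 windows of the Acta2 locus was low, the least methylated reading 51.3%. Des, the intermediate filament protein desmin, read 2.69%, 4.42% and 4.03% in the mAdu and 3.36%, 3.01% and 3.34% in the aged samples in its start window. That window is bordered by levels of 62.6% upstream and 31.6% downstream, so the low stretch of Des was confined to 1 window. Cnn1 (calponin) was low at 5.19% and 13.3% in its first windows and at 12.2% in a window upstream of the gene. Myh11, the smooth muscle myosin heavy chain, had 2 low windows at its upper edge (mean 8.75%), 1 at its lower edge and 1 in the interior, chr16:14265001-14266000, at 11.5%. The Tagln (transgelin) edge window averaged 18.9% and lay just under the threshold.

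The pericyte genes include the receptors Pdgfrb and Notch3, the potassium channel subunits Kcnj8 and Abcc9, and the proteoglycan Cspg4, known as NG2. Rgs5 is a regulator of G protein signalling, and Higd1b is a mitochondrial protein used as a pericyte marker. Kcnj8 had a run of 3 low windows at its start with a mean of 7.60%, and its start window lay between 0.508% and 1.49% in the 6 samples. Its neighbour Abcc9, which encodes the partner subunit of the same channel, had 1 low window, at the start, with 7.71%. Pdgfrb had 2 low windows at its lower edge, with levels of 3.17% and 14.8%. Notch3 had 2 at its start, at 2.29% and 6.86%, and another inside the gene, chr17:32162001-32163000, that read between 5.32% and 7.09%.

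At Cspg4 the start window averaged 15.8% and ranged from 14.7% to 16.9%, so it was low in every sample, while the upper quartile of all genes with 10 or more CG was 4.42%. The start window of Rgs5 averaged 20.3% and lay at the threshold, from 16.7% to 23.0%. The lowest window of Rgs5 was in the interior, chr1:169680001-169681000. It read 4.92%, 4.32% and 0.572% in the mAdu and 1.96%, 4.74% and 4.53% in the aged samples. A second interior window, chr1:169659001-169660000, averaged 14.5%. Higd1b had the most methylated end and body of the 35 genes, at 82.0% and 86.1%, and no low window.

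**Figure D3:**
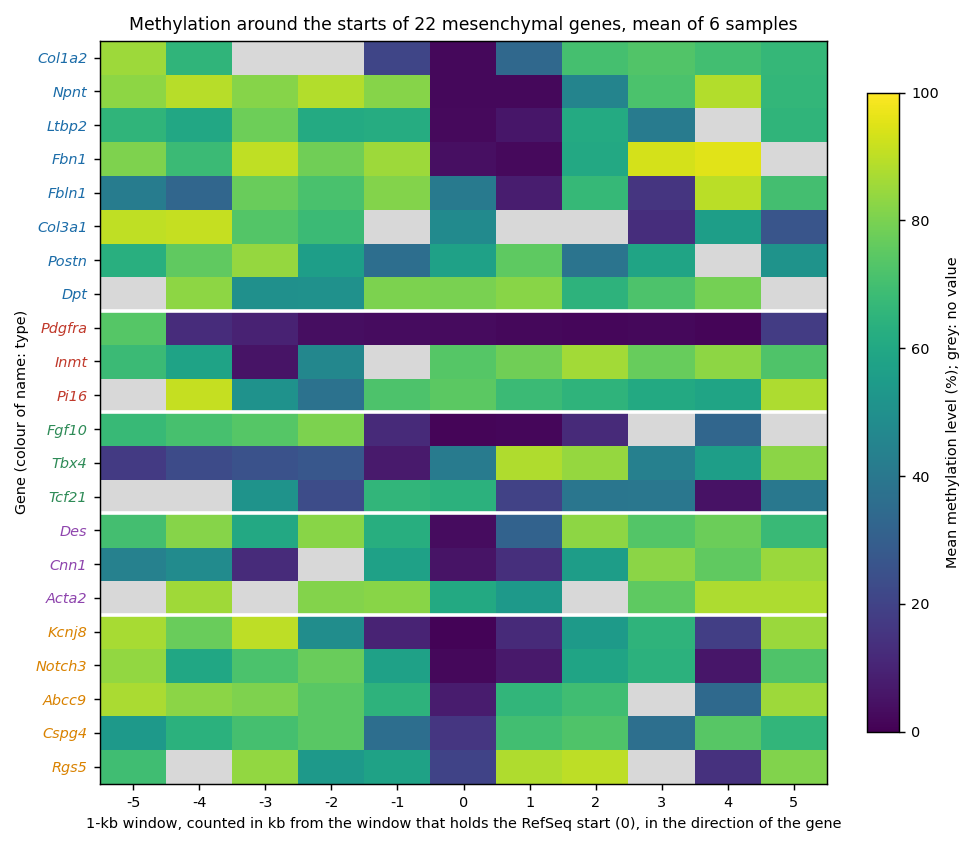
Mean methylation level of 6 samples in percent (colour) in the 1-kb windows around the RefSeq start (horizontal axis, in kb, in the direction of the gene) for the 22 mesenchymal genes with a RefSeq start (rows, by type); grey marks windows without a value in all samples. The dark stretch of Pdgfra spans 10 windows, while Des, Abcc9 and Col1a2 are low in the start window alone and Dpt, Pi16 and Acta2 have none that is low.

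Of the 1596 windows 89 were low (5.58%), beside 2.89% of all windows and 4.44% of windows within 5 kb of a protein-coding gene. Of these 89, 81 were under 20% in every one of the 6 samples. They lay at gene edges (36), in gene interiors (43) and in the flanks (10). At least 1 low window was found for 28 genes (80%), beside 74.2% of all genes. The same held for 20 of 20 endothelial markers and 54 of 57 other genes of the same mesenchymal kinds. The 7 without any were Lum, Postn, Mfap5, Dpt, Pi16, Acta2 and Higd1b. The 89 windows formed 51 runs, of which 31 were a single window, 13 were 2 windows and 7 were 3 or longer.

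The least methylated edge window of a gene was low for 23 of the 35 genes (65.7%), beside 64.6% of all genes and 19 of 20 endothelial markers. The longest low run had a median of 1 window for the 35 genes, 2 for all genes and 5 for the endothelial markers. Around the start, the median level of the 22 mesenchymal genes with a RefSeq start rose from 11.8% in the start window to 31.6% in the next and 62.9% in the one after it. For all genes these medians were 4.90%, 38.2% and 74.5%, and for 12 endothelial markers 3.08%, 1.16% and 4.79%. For the 57 other genes of the same mesenchymal kinds the lowest edge window was low in 49 (86.0%), with a median of 2.83%, so the share at the 35 genes does not stand for mesenchymal genes in general. The median endothelial marker stayed low up to 4 kb inside the gene. That median rests on 8 genes with a value at 3 kb and 9 at 4 kb, where the upper quartiles were 69.1% and 65.4%. No test was made between these lists of genes, which are not replicates.

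**Figure D4:**
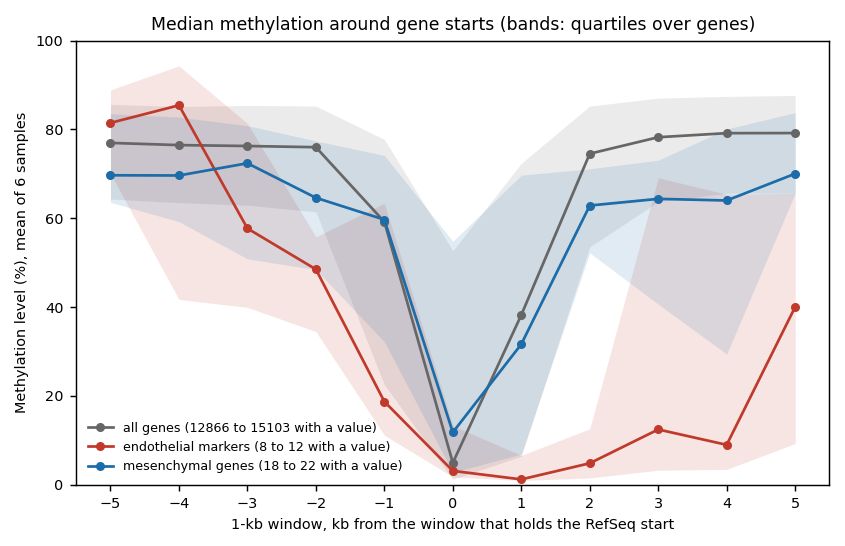
Median methylation level in percent (vertical axis, mean of 6 samples) by distance in kb from the window that holds the RefSeq start, for mesenchymal genes (blue), endothelial markers (red) and all genes (grey), with quartiles over genes as bands. From 2 kb inside the gene the blue line runs above 60%, while the red line is at 4.79% at 2 kb and 8.95% at 4 kb.

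Other genes of the same kinds, 58 in 4 lists, were read in the same way, and the end of 55 of them could be measured. Their median end was 26.0%, and 23 of 55 were low. Among further matrix genes the ends ran from 1.08% at Adamts2, a procollagen peptidase, to 67.3% at Fmod (fibromodulin). Among further regulators they ran from 0.856% at Foxf1, a forkhead factor of lung mesenchyme and endothelium, to 32.7% at Gli2, a hedgehog effector. Further mural genes ran from 1.01% at Mcam, an adhesion molecule also made by endothelium, to 46.9% at Gucy1b1, a subunit of the nitric oxide receptor. Smooth muscle genes ran from 5.13% at Tpm2 (tropomyosin) to 68.3% at Actg2 (enteric actin).

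The study's comparison is between the ages. With limma and Benjamini-Hochberg adjustment, none of the 35 ends differed between aged and mAdu samples (smallest adjusted p = 0.923), in a test that called 0.00524% of 19089 ends. None of the bodies did (smallest adjusted p = 0.953, limma), where 0.0171% of 17534 bodies were called, and none of the spans with their flanks (smallest adjusted p = 0.889), where 0% of 20539 were called. None of the 1596 windows passed (smallest adjusted p = 0.978, limma), where 0.0211% of all windows did. At an unadjusted p under 0.05 there were 3 ends (8.57%, beside 4.97% of all ends), 3 bodies (8.57%, beside 4.97%), 2 spans (5.71%, beside 4.82%) and 66 windows (4.14%, beside 4.67%).

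The groups did not overlap at 4 ends (11.4%, beside 10.2% of all genes), 3 bodies (8.57%, beside 10%), 4 spans (11.4%, beside 10.1%) and 170 windows (10.7%, beside 10%). These shares are near those of the genome at large. Differences of over 5 points in either direction were outside limma's 95% interval for 20 of 35 ends (57.1%, beside 61.9% of all ends). They were also outside it for 33 of 35 bodies (94.3%, beside 91.7% of all bodies) and all 35 spans (beside 88.7% of all spans). For the other 15 ends the interval reached past 5 points.

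At ends the difference was above 0 for 26 of the 35 genes, beside 51.0% of all genes, with a median of 0.60 points beside 0.03 points for all genes. The mean over the 35 ends was 36.4%, 36.2% and 36.3% in the mAdu samples and 36.8%, 36.7% and 37.3% in the aged samples. The difference was 0.68 points without overlap of the groups, but 0.33 points with a narrower and 0.29 points with a wider end, and the genes share the same 6 samples and were not tested as a list. Over bodies 20 of 35 differences were above 0, with a median of 0.08 points (all genes -0.04), and the means overlapped (67.9% to 68.3% in mAdu, 67.9% to 68.6% in aged samples). The mean over the 19 endothelial marker ends was 18.0% to 19.0% in mAdu and 18.5% in each aged sample. For the 58 other genes of the same kinds, 0 of 55 ends passed limma's adjusted threshold. Of these 55 ends, 5 had an unadjusted p under 0.05 (9.09%, beside 4.97% of all ends). In aged samples 26 of 55 were higher (47.3%, beside 51.0% of all ends).

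The ends with the smallest p were those of Eln, Myh11, Dcn, Col3a1 and Col1a1, none of which passed. The Eln end read 33.2%, 31.0% and 32.9% in the mAdu and 28.4%, 28.2% and 30.0% in the aged samples. These values did not overlap, and the difference was -3.49 points (SE 1.02, limma adjusted p = 0.923). With the end narrowed to 500 bp outside and 250 bp inside, which leaves the edge window at 1.04%, it was -0.41 points. The Myh11 end read 24.7%, 23.7% and 23.6% in the mAdu and 27.1%, 25.3% and 25.9% in the aged samples, also without overlap, a difference of 2.10 points (SE 0.82, limma adjusted p = 0.962). Dcn read 32.8%, 35.3% and 33.7% against 35.1%, 37.8% and 39.8%, and here the lowest aged sample fell inside the mAdu range (difference 3.60 points, SE 1.47). Col3a1 differed by 5.96 points (SE 2.61) and Col1a1 by -2.70 points (SE 1.19), each with overlapping samples and a limma adjusted p of 0.962. The 30 remaining ends differed by between -3.69 and 3.42 points.

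Among bodies the smallest p belonged to Lum, Dcn, Inmt, Eln and Tbx5, again none passing (limma adjusted p of at least 0.953). The Lum body, 7 windows, read 75.0%, 76.5% and 75.3% in the mAdu and 77.4%, 78.1% and 78.7% in the aged samples, without overlap, a difference of 2.46 points (SE 0.57). The Dcn body read 73.8%, 73.9% and 71.1% in the mAdu and 69.8%, 69.1% and 71.5% in the aged samples, which overlapped, a difference of -2.78 points against 3.60 points at the end of the same gene. The Inmt body was 1.65 points higher and the Tbx5 body 0.90 points higher in aged samples, both without overlap. For the Eln body the difference was -1.33 points, with overlapping samples.

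**Figure D5:**
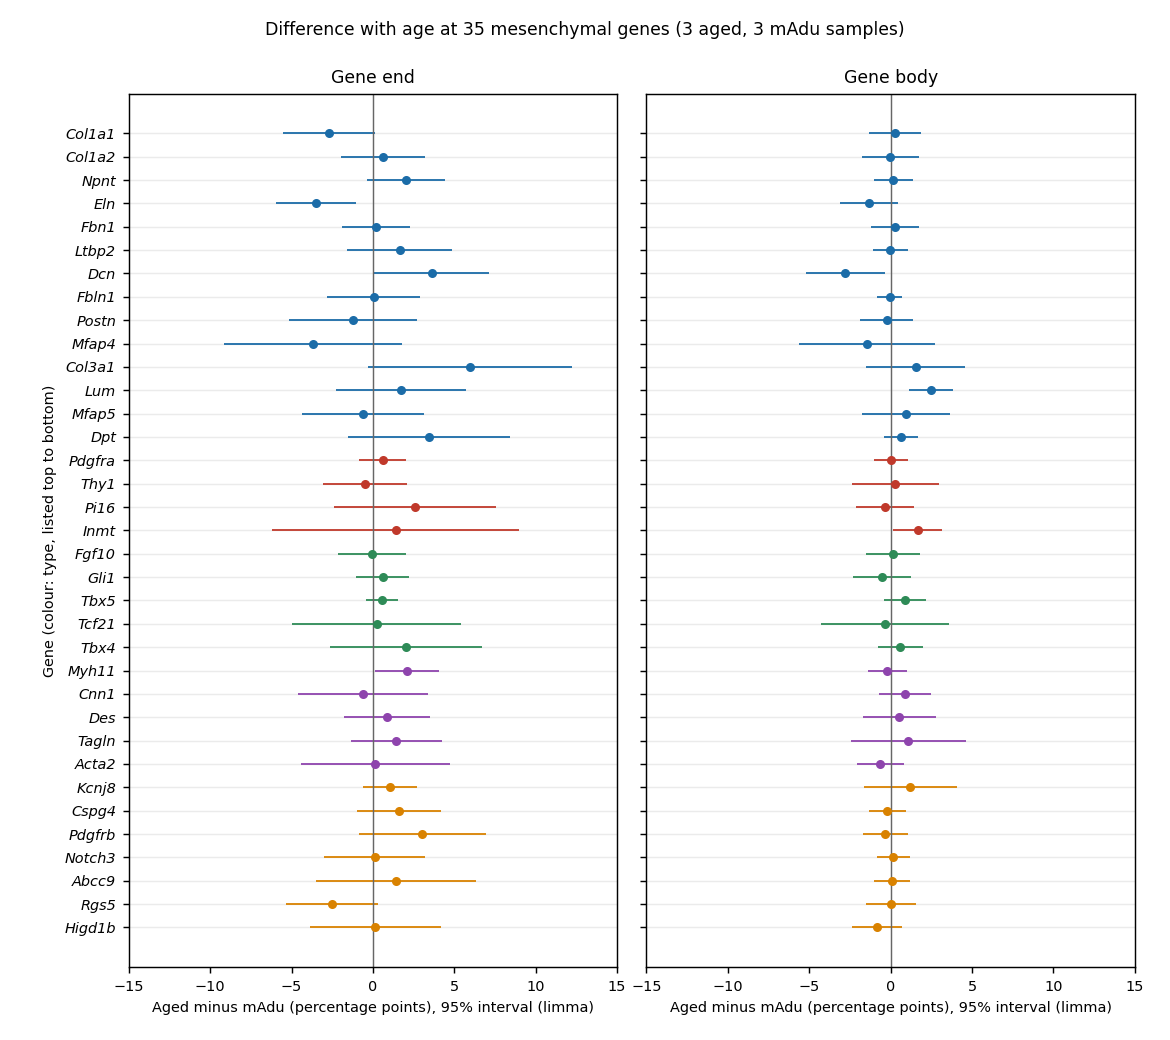
Difference in methylation, aged minus mAdu, in percentage points (horizontal axes) at the end (left) and over the body (right) of each of the 35 genes (rows, coloured by type), with the 95% interval from limma. The points lie between -3.69 and 5.96 at ends and between -2.78 and 2.46 over bodies, and none passed the adjusted threshold.

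Of single windows, the 5 with the smallest p lay at Tagln, Mfap5, Pi16, Abcc9 and Inmt, all with a limma adjusted p of 0.978 and all without overlap of the groups. In the flank of Tagln the window chr9:45925001-45926000, which overlaps Pcsk7, read 97.5%, 98.9% and 98.0% in the mAdu and 92.1%, 89.5% and 86.0% in the aged samples. Beside Mfap5 the window chr6:122533001-122534000 read 19.0%, 16.7% and 15.5% in the mAdu and 24.1%, 28.7% and 25.7% in the aged samples, and it was the least methylated window of that locus. An interior window of Pi16, chr17:29324001-29325000, which overlaps Gm46603, averaged 95.6% ± 1.04 (SD, n = 3) in mAdu and 89.5% ± 2.08 (SD, n = 3) in aged samples. An interior window of Abcc9, chr6:142621001-142622000, which overlaps 5330439B14Rik, averaged 62.8% ± 4.18 (SD, n = 3) and 49.9% ± 1.14 (SD, n = 3). Upstream of Inmt the window chr6:55179001-55180000 averaged 62.5% ± 3.72 (SD, n = 3) and 73.7% ± 2.20 (SD, n = 3).

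Of the 89 low windows, 8 showed no overlap of the groups (8.99%, beside 10% of all windows) and 2 had an unadjusted p under 0.05 (2.25%, beside 4.67%). Since these windows were chosen for a mean under 20%, the size of a difference in them is bounded by that choice.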

How the data were processed

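Methylation was measured in 6 samples, 3 per group. Per the submitters' processing notes, reads were processed with BWA 0.7.8 and build mm10. How CpG sites were called, filtered and averaged is not stated in the labels. As deposited, the authors' table holds the mean methylation of each 1000-bp window as a fraction, without read counts, so depth is unknown. Fractions were multiplied by 100. Of 1684140 windows on 19 autosomes, the 1683697 with all samples were kept.

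Gene spans and promoters came from RefSeq tables of GRCm38.p6. A region's value is the mean of the windows it overlaps. Ends (both edges measured), bodies (at least 3 windows, from 500 bp inside), spans with 5 kb flanks and all windows were tested with limma 3.58.1 (R 4.3.3) on percent values. The model held only the group, its prior variance followed a trend, and p-values were adjusted by Benjamini-Hochberg over all features (threshold 0.05). The code was tested on simulated gene bodies only, not on ends, spans or windows. The differences put in were larger than those seen at the ends or bodies of the 35 genes. All 35 genes are named for their levels. Differences are given singly for those that passed or, if none, for the 5 smallest p at ends, bodies and windows. Of other lists of the same kinds, genes that passed and the lowest and highest end are named. No test was made on means over genes. The genes and lists were chosen with earlier results of these data known.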

Additional observations from a re-analysis of the deposited data

How the results depend on the processing

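None of the 35 ends, bodies, spans or 1596 windows passed under any setting run with limma: no variance trend, a logit scale, a replicate block, other end widths, the RefSeq start, other flanks, removal of windows with values close to 0 or 100% in any sample, or each sample left out in turn. The smallest adjusted p of a window among these was 0.452, without mAdu replicate 3. Same-numbered samples did not deviate together (r = -0.166, -0.136 and -0.006 over gene bodies), so the numbers are not taken as pairs. With the replicate block the calls over all windows went from 355 to 185, over ends from 1 to 0, over bodies from 3 to 0 and over spans from 0 to 2, and the smallest adjusted p of the 35 ends was 0.979. Over all windows, calls were 81 on the logit scale, 59 without extreme windows and 680 to 998 with a sample left out.

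Levels depend on the width of the end. The median end was 26.9% with 500 bp outside and 250 bp inside, 46.3% with the wide end of 2000 bp outside and 1000 bp inside, and 36.0% around the RefSeq start (22 genes), and low ends numbered 11, 4 and 4 (7 as reported, 14 at a threshold of 30%). Low windows numbered 56 at a threshold of 10%.

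Mean differences near 0 changed sign. The mean over matrix ends (0.54 points) was -0.13 with the narrow and -0.055 with the wide end, and ran from -0.014 to 0.880 with a sample left out. The mean over all 35 bodies (0.13) ran from -0.077 to 0.27 with a sample left out, over matrix bodies from -0.33 to 0.27, over regulator bodies from -0.067 to 0.39, over smooth muscle bodies from -0.091 to 0.72 and over pericyte bodies from -0.14 to 0.14 (-0.00396 on the logit scale, in logit units). The mean over spans (0.002) was -0.0012 on the logit scale, -0.0064 without extreme windows, -0.0079 with 10 kb flanks, and ran from -0.11 to 0.074 with a sample left out. The mean over all 35 ends (0.68) was 0.33 with the narrow end, 0.29 with the wide end and 0.87 around the RefSeq start, and ran from 0.49 to 0.80 with a sample left out. With the wide end the differences of Dcn (-0.43 points) and Col1a1 (0.41 points) reversed, and that of Eln was -0.41 with the narrow end. The cause was not tested.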

Other observations

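Genes with a methylated end tended to have a methylated body. Over the 35 genes the end and body levels correlated with Pearson r = 0.531 and Spearman rho = 0.515, beside r = 0.164 and rho = 0.064 over 16709 genes. This is across genes of the same 6 libraries, which are not independent replicates, and edge windows can enter both values. Higd1b is high in both, and Kcnj8, Gli1, Tbx5 and Tcf21 are in the lower part of both. Other genes went against the trend. Pdgfra had the lowest end, 3.47%, with a body of 72.8%, and Col1a2 read 18.9% at the end and 77.3% over the body.

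Some values were picked after they were seen. Within Tbx5, 3 windows near its interior low runs were among the 12 windows with the smallest p, all higher in aged samples without overlap and none passing (limma adjusted p = 0.978). The window chr5:119841001-119842000 averaged 29.1% ± 4.31 in mAdu and 40.9% ± 5.20 in aged samples (SD, n = 3 each). The windows chr5:119847001-119848000 and chr5:119848001-119849000 adjoin each other but not that one, with the low run chr5:119844001-119846000 in between. They averaged 65.3% and 53.3% in mAdu and 75.1% and 67.2% in aged samples. Over the whole span with its flanks, Mfap4 read 70.8%, 71.3% and 70.9% in the mAdu and 68.8%, 68.1% and 69.5% in the aged samples, a difference of -2.22 points with the smallest limma adjusted p of the 35 spans, 0.889. Of the other matrix genes, the end of Loxl2, a collagen crosslinking enzyme, averaged 66.7% ± 57.7 in mAdu and 12.2% ± 21.2 in aged samples (SD, n = 3 each, limma adjusted p = 0.962), so its samples spread over most of the scale. The spread was not confined to the end. The Loxl2 body averaged 48.8% ± 46.0 in mAdu and 50.3% ± 41.9 in aged samples (SD, n = 3 each), so its values say little about age. The cause was not tested.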
